A study of Mus musculus with 2 samples.

Results

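The genes described here encode 8 transcription factors of the sympathoadrenal lineage: the homeodomain proteins Phox2a and Isl1, the basic helix-loop-helix proteins Hand1 and Hand2, the GATA zinc finger proteins Gata2 and Gata3, the zinc finger protein Insm1 and the AP-2 protein Tfap2b. They were chosen by name as regulators of this lineage, by a rule that uses no measured value, and all 8 were found among the 55536 annotated genes. RNA came from the whole adrenal gland of newborn females, 4 days old, of B6CASTF1/J, a cross between the laboratory strain C57BL/6J and the wild-derived CAST/EiJ. The 2 samples formed 1 group of biological replicates with no treatment and no control group, so every value below describes the untreated gland of the newborn. Per the labels, each library was made from 300 ng of total RNA, stranded and depleted of ribosomal RNA, with an ERCC spike-in. The label texts conflict on the animal behind replicate 2, whose library text repeats the animal number of replicate 1 while its tissue text gives another, and both samples share a donor record. Differences between the replicates therefore describe 2 libraries, and may be technical.

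The chromaffin cells of the adrenal medulla and the neurons of the sympathetic ganglia both descend from the neural crest. The genes for these factors switch on as crest-derived cells take on this fate, and the factors keep one another expressed and turn on the enzymes that make and store catecholamines. Several are also used elsewhere: Gata2 in endothelium, blood precursors and mast cells, Isl1 and Insm1 in pancreatic islets, and Gata3 and Tfap2b in kidney epithelium. In whole tissue, fewer cells of a type and less RNA per cell cannot be told apart.

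Promoter sequences of the members whose results are taken up in most detail are shown first. They are those at both RefSeq starts of Gata2, whose transcripts divide between a distal and a proximal stretch, and that of Hand2, which lies beside an antisense gene. The last sequence is that of Phox2a, the member with the highest mean level in the second quantification. Each runs 5′ to 3′ on the gene's strand from 250 bases before the start to 50 bases from the start on, as given by RefSeq on GRCm38.p6. Capitals mark matches, on either strand, to 10 searched motifs: the GATA motifs (AGATAA or TGATAA, and also AGATAG or TGATAG), the E-boxes (CATCTG or else CAGCTG), the AP-2 motif GCCNNNGGC, the homeodomain motif TAATTA, the CCAAT box and the TATAAA box. Letters outside these matches are in lower case.
Gata2 distal start, chr6:88193641-88193940, plus strand: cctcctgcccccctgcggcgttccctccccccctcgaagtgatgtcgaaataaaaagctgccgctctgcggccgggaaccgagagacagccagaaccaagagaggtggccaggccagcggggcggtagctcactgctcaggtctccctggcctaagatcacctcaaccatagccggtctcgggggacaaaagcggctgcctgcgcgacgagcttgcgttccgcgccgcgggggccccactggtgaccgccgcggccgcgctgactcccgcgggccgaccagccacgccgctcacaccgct
Gata2 proximal start, chr6:88198414-88198713, plus strand: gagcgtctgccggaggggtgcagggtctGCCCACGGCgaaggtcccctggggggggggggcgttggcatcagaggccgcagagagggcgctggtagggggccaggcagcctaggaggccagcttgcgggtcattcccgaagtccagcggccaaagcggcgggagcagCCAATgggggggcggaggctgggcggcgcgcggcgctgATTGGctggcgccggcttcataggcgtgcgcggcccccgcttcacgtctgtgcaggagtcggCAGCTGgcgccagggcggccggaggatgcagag
Hand2, chr8:57320733-57321032, plus strand: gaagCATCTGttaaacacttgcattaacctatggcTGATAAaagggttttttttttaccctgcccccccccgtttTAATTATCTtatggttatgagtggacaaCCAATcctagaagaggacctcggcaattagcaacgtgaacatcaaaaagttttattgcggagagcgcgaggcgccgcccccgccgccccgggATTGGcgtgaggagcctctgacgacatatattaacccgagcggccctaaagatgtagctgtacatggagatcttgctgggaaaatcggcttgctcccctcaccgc
Phox2a, chr7:101818063-101818362, plus strand: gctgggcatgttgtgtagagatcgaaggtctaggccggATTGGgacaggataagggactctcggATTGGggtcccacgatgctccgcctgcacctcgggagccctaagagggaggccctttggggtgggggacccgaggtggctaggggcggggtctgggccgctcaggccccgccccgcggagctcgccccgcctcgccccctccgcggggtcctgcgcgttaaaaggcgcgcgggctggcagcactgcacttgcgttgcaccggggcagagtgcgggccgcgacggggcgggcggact

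The Gata2 proximal window held 1 CAGCTG, 1 GCCNNNGGC and 2 CCAAT matches, and the distal window held none of the 10 motifs. The Hand2 window held 1 TGATAA match, 1 CATCTG match, 2 CCAAT matches, and an AGATAA whose match on the other strand overlaps a TAATTA. The Phox2a window held 2 CCAAT matches. RefSeq gave 7 such windows for 6 members, with no entry for Hand1 and Insm1. Any of the 4 GATA motifs occurred in 3 of the 7 windows and in 29.8% of all 32851 windows. Of these, AGATAA occurred in 2 of 7 and in 11.2%, TGATAA in 2 of 7 and in 9.05%, AGATAG in none and in 8.95%, and TGATAG in 1 of 7 and in 7.29%. TAATTA occurred in 1 of 7 and in 5.29%. CAGCTG occurred in 3 of 7 and in 16.3%, GCCNNNGGC in 2 of 7 and in 16.6%, CATCTG in 1 of 7 and in 17.2%, CCAAT in 4 of 7 and in 37.4%, and TATAAA in none and in 13.6%. Both Gata2 windows were rich in CpG dinucleotides, with 32 at the distal and 29 at the proximal start against a median of 7 over all windows. Isl1 held 37, Phox2a 30, Gata3 22 and Hand2 17, and only the Tfap2b window, with 8, lay near the median. That window lies at the start of Tfap2b-202, 3140 bases downstream of the start of Tfap2b-201. Tfap2b-202 took 9.89% of the gene's counts in replicate 1 and 6.72% in replicate 2, and Tfap2b-201 took 83.3% and 82.5%. G and C made up 48.3% of bases in the Tfap2b window and 73.7% in the Gata2 proximal window, with a median of 52.7% over all windows. A match to such short letters is a description of the sequence and not a binding site.

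Of 31838341 expected counts in replicate 1, the 8 members took 8022, and of 32931868 in replicate 2 they took 8868. An expected count is the number of reads assigned to a gene, and all 8 members had whole numbers in both libraries (within 0.005), as had 81.6% of the 13734 genes whose counts averaged 100 or more. Levels between genes are compared in TPM, which divides a gene's count by its effective length and scales the library to a fixed sum. The defining markers of the tissue were present: all 6 cortex markers and all 12 catecholamine and chromaffin genes listed reached 1 TPM in both replicates. Markers of neighbouring organs were higher in replicate 1, those of pancreatic acinar cells summing to 3758 TPM against 0.59 in replicate 2, islet markers to 628 against 2.03 and nephron markers to 121 against 15.9. Of the 12 islet markers, 8 had 0 counts in replicate 2.

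All 8 members were detected, each above 1 TPM in both replicates, and their sum was 113 TPM in the first replicate and 124 TPM in the other (119 ± 7.69, SD, n = 2). Their mean levels spanned 4.67-fold, from Hand2 at the top through Phox2a, Gata2, Gata3, Tfap2b, Hand1 and Insm1 to Isl1. Neighbours in that order overlapped between the replicates in 2 cases, Hand2 with Phox2a and Tfap2b with Hand1, and the other neighbours did not. Hand2 (22.7 and 28.8 TPM) also overlapped Gata2 (22.4 and 22.9 TPM), which is not its neighbour in the order. Hand2 ranked 3296th and Isl1 9832nd among 22028 protein-coding genes, of which 13067 were detected. A second quantification deposited by the authors, a transcript table made from the read files and summed to genes here, gave levels 1.60 to 2.25 times higher. In it the mean of Phox2a (43.0 TPM) stood above that of Hand2 (41.2 TPM), and Isl1 (12.4 TPM) stood above Insm1 (10.3 TPM). The order of Isl1 and Insm1 thus depends on the quantification. In both quantifications Phox2a was above Hand2 in replicate 1 and below it in replicate 2, so only the order of their means changed.

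**Figure D1:**
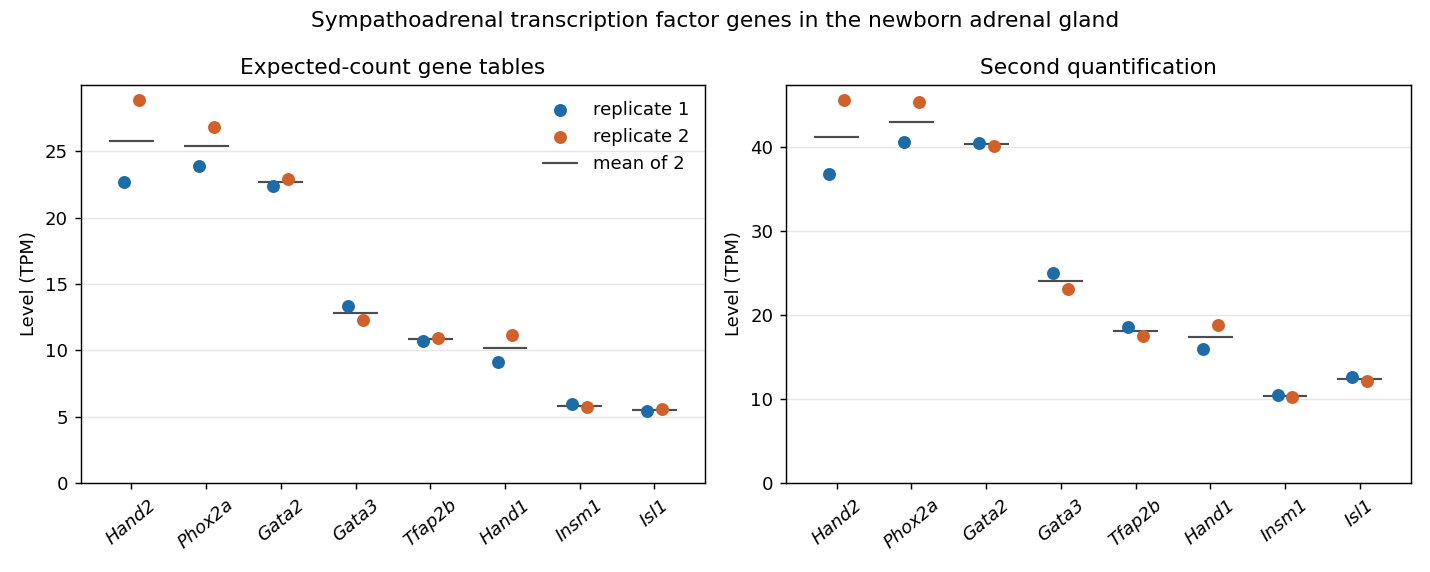
Level of each of the 8 genes in TPM, 1 point per replicate with a line at the mean, in the first quantification on the left and the second on the right. Hand2, Phox2a and Gata2 lie highest, between 22.4 and 28.8 TPM in the first quantification, and Insm1 and Isl1 lowest, between 5.42 and 5.92 TPM.

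No member differed 2-fold between the replicates, against 441 of these 13734 genes, or 3.21% (1.5% higher in replicate 2 and 1.71% higher in replicate 1). An exact conditional binomial test of the counts, with Benjamini-Hochberg adjustment over those genes, asks only whether the libraries differ by more than sampling, and called 33.2% of the genes, 18.8% as higher in replicate 2 and 14.4% as higher in replicate 1. It called 4 of the 8 members, Phox2a, Hand1, Hand2 and Gata2, all higher in replicate 2. Scaled by the spike-ins instead, the test called 2 members, Hand2 as higher in replicate 2 and Tfap2b as higher in replicate 1, and 5142 of the 13734 genes. The median log2 ratio of replicate 2 over replicate 1, from counts scaled by TMM, was 0.10 over the members and 0.02 over all genes tested. The member ratios ran from -0.11 to 0.39, so that the widest difference was 1.31-fold. Each replicate is 1 library, so none of these differences can be tested as a difference between animals.

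**Figure D2:**
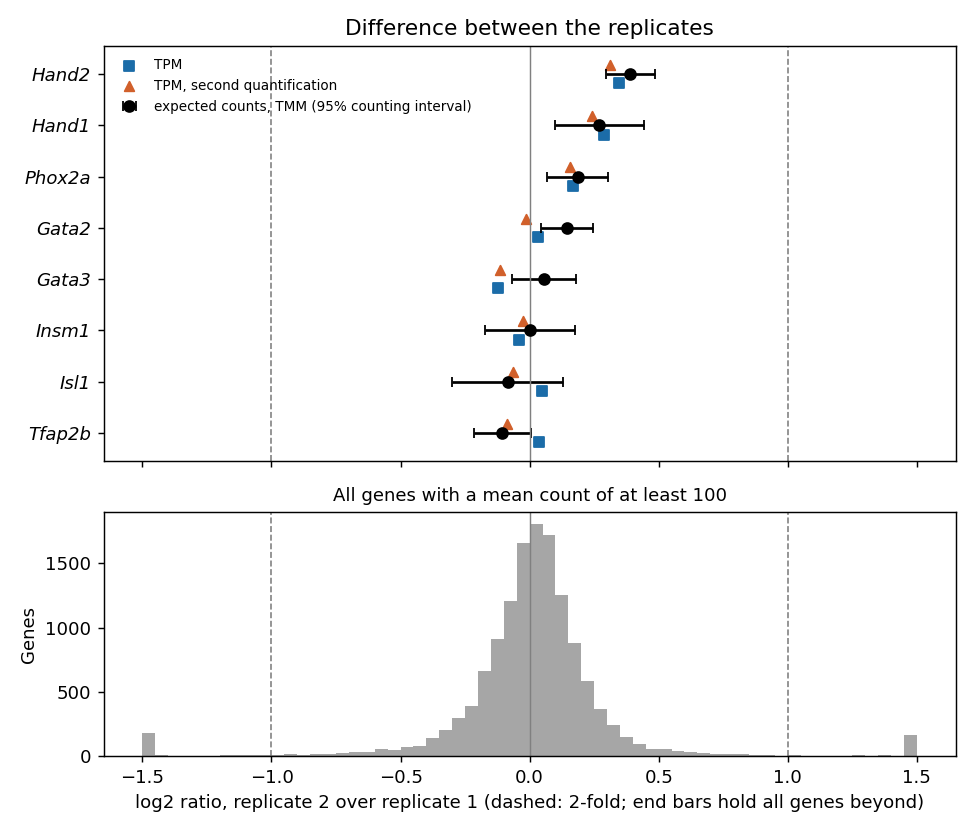
Log2 ratio of replicate 2 over replicate 1 for the 8 genes, from TMM-scaled counts with 95% exact counting intervals (circles), from TPM (squares) and from TPM of the second quantification (triangles), above the distribution of the same ratio over the 13734 genes tested. Intervals for Hand2, Hand1, Phox2a and Gata2 lie above 0, those for Gata3, Insm1, Isl1 and Tfap2b include 0, and all lie inside 2-fold.

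Phox2a (ENSMUSG00000007946.11, chr7:101818313-101822726, plus strand), a homeodomain factor that binds the promoters of the catecholamine enzyme genes, had 1081 counts and 23.9 TPM in replicate 1 and 1233 counts and 26.9 TPM in replicate 2. Replicate 2 was the higher by counts and by TPM, with a log2 ratio of 0.19 (95% interval 0.07 to 0.31, exact test adjusted p = 0.00876). The call was lost with spike-in scaling (exact test adjusted p = 0.165) and with total-count scaling (0.0553). Nearly all of its level came from 1 transcript, the coding Phox2a-201 of 280 codons, with 96.1% and 93.2% of the gene's TPM. The 3′ end of Phox2a overlaps by 95 bases that of Inppl1 on the other strand, which stood at 32.0 and 33.0 TPM.

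Isl1 (ENSMUSG00000042258.13, chr13:116298281-116309689, minus strand), a LIM homeodomain factor of sympathetic and chromaffin precursors, had 367 counts and 5.42 TPM in replicate 1 and 347 counts and 5.60 TPM in replicate 2. The replicates lay close, and the sign depended on the scale: the log2 ratio was -0.08 by counts (interval -0.30 to 0.13, exact test adjusted p = 0.612) and 0.05 by TPM. Its paralog Isl2 had 0 and 1 counts, so essentially all Isl RNA was Isl1. The coding transcript Isl1-201 took 78.6% and 68.9% of the gene's TPM, and 54.2% and 51.3% in the second quantification. Transcripts annotated as non-coding, such as retained introns, took 9.78% and 31.1% of TPM in the first quantification, on few counts. The short Isl1-203 took 0% and 22.5% of TPM with 0 and 23 counts, or 0% and 6.67% of the gene's counts. In the second quantification it took 16.4% and 29.1% of TPM with 15 and 27 counts. By counts Isl1-201 took 86.3% and 85.5% in the first quantification. Isl1 is also made by islet cells. The islet hormone genes were far higher in replicate 1, where Ins2 had 4413 counts, Gcg 2382 and Iapp 542, each against 0 in replicate 2, and Sst had 258 against 37. Isl1 differed by less than its counting interval between the same libraries, and the part of islet RNA in its level was not tested.

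Hand2 (ENSMUSG00000038193.4, chr8:57320983-57324633, plus strand), a basic helix-loop-helix factor that acts with GATA proteins on noradrenergic genes, had 1573 counts and 22.7 TPM in replicate 1 and 2066 counts and 28.8 TPM in replicate 2. This was the widest difference among the members, with a log2 ratio of 0.39 (interval 0.29 to 0.49, exact test adjusted p = 9.90e-15), and 9.31% of all genes tested differed more. Its call was kept under every scaling tried. Hand1 (ENSMUSG00000037335.13, chr11:57828705-57832818, minus strand), the paralog best known from heart and placenta and also expressed in the sympathoadrenal lineage, had 504 counts and 9.15 TPM in replicate 1 and 609 counts and 11.2 TPM in replicate 2. Its log2 ratio was 0.27 (interval 0.10 to 0.44, exact test adjusted p = 0.00847), a call lost with spike-in scaling (0.0753). Hand2 exceeded Hand1 by a log2 of 1.34 ± 0.04 (SD, n = 2) and held 71.3% and 72.1% of the pair's TPM. The pair therefore kept nearly the same proportion while both were higher in replicate 2. Hand1-201 took 84.6% and 93.1% of the Hand1 level, and its other coding transcript of equal coding length, Hand1-203, has only 2 stretches of 31 bases of its own.

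Hand2 is overlapped over 3251 bases by Hand2os1 (ENSMUSG00000100510.7, chr8:57281117-57324233, minus strand), a long non-coding RNA gene transcribed the other way. Hand2os1 had 2308 counts and 60.99 TPM in replicate 1 and 2109 counts and 56.5 TPM in replicate 2 (58.7 ± 3.19 TPM, SD, n = 2), which is 2.69 and 1.96 times the Hand2 level in the same library. It thus stood above every member, and in the second quantification the ratio was 4.04 and 2.69. Its log2 ratio between replicates was -0.13 (interval -0.22 to -0.05, exact test adjusted p = 0.00897), opposite in sign to that of Hand2. Of its 37 annotated transcripts, 34 start upstream of the Hand2 start and run away from Hand2, without overlapping it. These held 99.6% of the Hand2os1 TPM in each replicate, and 97.0% and 94.5% in the second quantification. The 3 that start inside the Hand2 gene held 0.443% and 0.372% in the first. Within 1000 bases upstream of the Hand2 start, 25 transcripts began, with 61.8% and 62.8% of its TPM. Starts inside the 250 bases of promoter printed above belonged to 13 transcripts with 34.2% and 39.4%. The libraries kept strand, per the labels, but no source used here says whether the quantification used it, so reads from the overlapping stretch cannot be assigned with certainty.

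Gata2 (ENSMUSG00000015053.14, chr6:88193891-88207032, plus strand), a zinc finger factor of sympathoadrenal precursors, endothelium and blood precursors, had 1499 counts and 22.4 TPM in replicate 1 and 1662 counts and 22.9 TPM in replicate 2. By counts replicate 2 was higher by a log2 of 0.15 (interval 0.04 to 0.25, exact test adjusted p = 0.0183), while by TPM the log2 ratio was 0.03 and in the second quantification -0.01. The call was lost with spike-in scaling (exact test adjusted p = 0.341) and with total-count scaling (0.126). The effective length used for TPM was 2176 bases in replicate 1 and 2277 in replicate 2. Gata3 (ENSMUSG00000015619.10, chr2:9857078-9890034, minus strand), required for the survival of sympathetic neurons and chromaffin cells, had 1069 counts and 13.3 TPM in replicate 1 and 1114 counts and 12.3 TPM in replicate 2. Its log2 ratio was 0.06 by counts (interval -0.07 to 0.18, exact test adjusted p = 0.532) and -0.12 by TPM, at effective lengths of 2605 and 2857 bases. The replicates did not differ in Gata3 beyond counting error, and its direction turned with the scale. In the first quantification Gata3-201 took 80.9% and 90.3% of its TPM, and transcripts of non-coding type 19.1% and 9.71%. By counts Gata3-201 took 96.7% and 98.5% there. In the second quantification Gata3-201 took 74.0% and 81.1% of TPM, and 95.8% and 97.2% of counts. The coding Gata3-202 took 17.6% and 14.9% of TPM in the second quantification, on 32 and 26 counts, and had 0 counts in the first.

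Among the 6 GATA genes, Gata6, a factor of cortex and mesoderm, held the larger share, with 46.5% and 51.9% of the family's TPM. Gata2 followed with 30.4% and 29.0% and Gata3 with 18.1% and 15.5%. Gata4 held 3.03% and 1.86%, while the erythroid and mast cell factor Gata1 stayed below 2% and Gata5 below 1% in both. The log2 ratio of Gata3 over Gata2 was -0.83 ± 0.11 (SD, n = 2), so Gata2 was the higher in both replicates. Gata2 stood at 52.8% and 52.0% of the level of the endothelial cadherin gene Cdh5. Of 8 endothelial markers, 4 were called higher in replicate 2 and 1 higher in replicate 1 (18.8% and 14.4% over all genes tested), with summed levels of 366 and 350 TPM. Erythroid and mast cell markers summed to 3642 and 2636 TPM, mostly globin, and their part and that of endothelial RNA in the Gata2 level were not tested. Nephron and collecting duct markers were higher in replicate 1 for all 10 genes of that list with enough counts. Gata3, also expressed by collecting duct cells, had a log2 ratio of 0.06 in the same libraries, and the part of kidney RNA in its level was not tested.

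Where Gata2 transcripts start depended on the quantification. Gata2-202 begins at the distal start and Gata2-201 begins 4443 bases downstream, and both encode the same 480 codons from shared exons. In the first quantification Gata2-202 had 1359 counts in replicate 1 and 1446 in replicate 2, and Gata2-201 had 0 and 100. In the second, Gata2-202 had 756 and 750 and Gata2-201 had 743 and 926. The short Gata2-203, which begins at the same site as Gata2-201, had 53 and 55 counts in the first and 17 and 19 in the second. Both transcripts of that site together took 23.6% and 27.4% of the gene's TPM by the first quantification and 43.1% and 50.4% by the second. The distal transcript held 65.0% and 65.2% of the gene's TPM by the first and 31.4% and 30.3% by the second. Together Gata2-202 and Gata2-201 took 90.7% and 93.0% of the gene's counts in the first and 90.3% and 92.6% in the second. By counts the methods thus agreed on the sum of Gata2-202 and Gata2-201 within 1 percentage point and divided it differently. By TPM their sum was 65.0% and 69.2% of the gene in the first and 58.1% and 62.6% in the second. Only 3.6% of the 31-base stretches of Gata2-202, 112 of 3105, and 8.4% of those of Gata2-201, 299 of 3541, occur in no other annotated transcript of the gene. The RefSeq proximal start, whose window is printed above, lies 330 bases downstream of the annotated start of Gata2-201, so that window does not hold the start to which these counts were assigned. Among 9247 genes with several transcripts and at least 5 TPM, the leading transcript was the same in both quantifications for 74.2% in replicate 1 and 74.6% in replicate 2. Of the 6 members with several transcripts it was the same for 6 in replicate 1 and for 5 in replicate 2, with Gata2 as the exception.

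**Figure D3:**
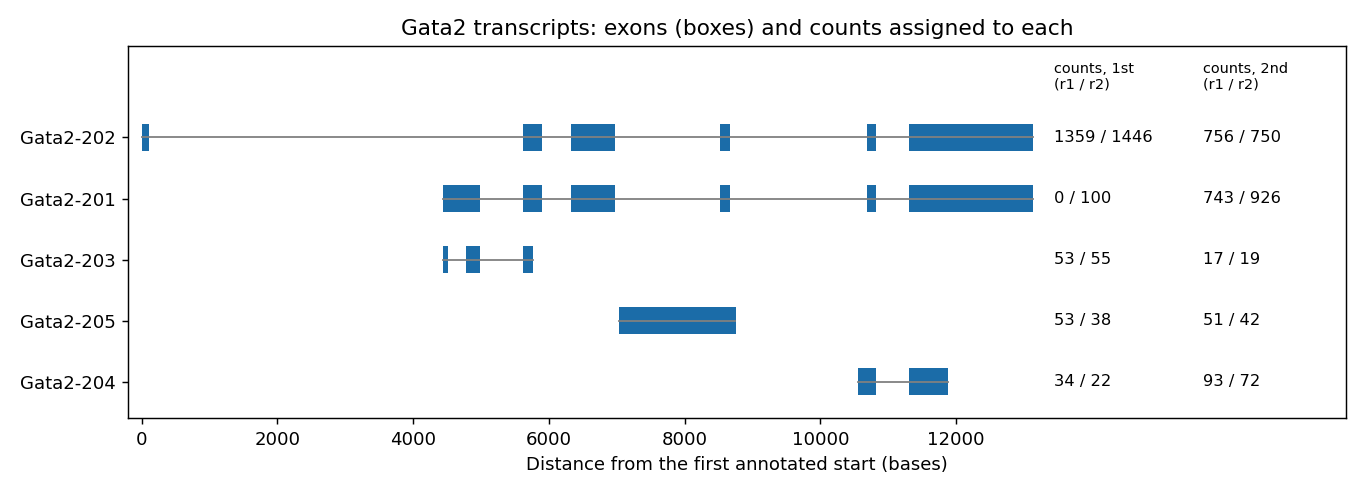
Exons of the 5 annotated Gata2 transcripts by distance from the distal start in bases, with the counts assigned to each in replicates 1 and 2 (r1, r2) by the first and the second quantification. The 2 long coding transcripts, Gata2-202 and Gata2-201, share their exons but the first, apart from 2 bases at the 3′ end, and the first exon of Gata2-201 lies 4443 bases downstream.

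**Figure D4:**
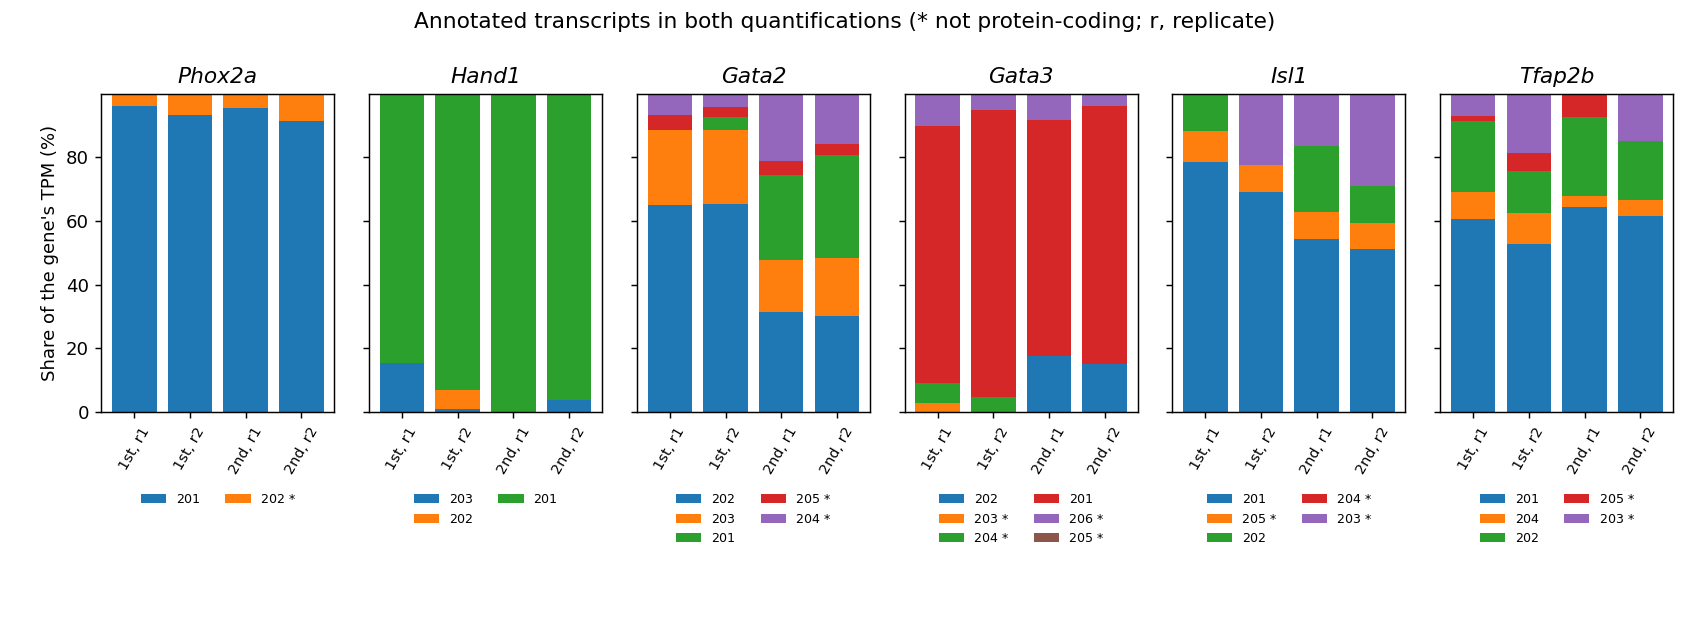
Share of each gene's TPM, in percent, taken by its transcripts in each replicate under the first and the second quantification. Gata2-202 falls from 65.0% and 65.2% to 31.4% and 30.3% between quantifications, while Phox2a-201 stays above 91% in all 4 bars.

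Insm1 (ENSMUSG00000068154.5, chr2:146221921-146225020, plus strand), a zinc finger factor of neuroendocrine cells that is needed for chromaffin cell differentiation, had 547 counts and 5.92 TPM in replicate 1 and 549 counts and 5.75 TPM in replicate 2. By TMM-scaled counts the replicates lay closest for Insm1 among the members, though not with spike-in or total-count scaling, where Gata3 lay closer. The log2 ratio was 0.0015 (interval -0.17 to 0.17, exact test adjusted p = 1), and 99.2% of all genes tested differed more. Insm1 has 1 exon and 1 annotated transcript. Its paralog Insm2 had 94 and 150 counts, a log2 ratio of 0.67 (interval 0.29 to 1.06, exact test adjusted p = 0.00208), and Insm1 held 83.3% and 75.8% of the pair's TPM. Insm1 is a marker of islet cells as well, and its counts were nearly equal in libraries whose islet markers differed as described for Isl1. The part of islet RNA in its level was not tested.

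Tfap2b (ENSMUSG00000025927.13, chr1:19208914-19238576, plus strand), an AP-2 factor of the sympathetic lineage that acts upstream of the noradrenergic genes, had 1382 counts and 10.7 TPM in replicate 1 and 1288 counts and 10.96 TPM in replicate 2. Its log2 ratio was -0.11 by counts (interval -0.22 to 0.01, exact test adjusted p = 0.140) and 0.04 by TPM, the effective length being 4200 and 3692 bases. It was called higher in replicate 1 with spike-in scaling (-0.19, exact test adjusted p = 0.00386) and with total-count scaling (-0.15, 0.0259). It was the dominant AP-2 gene, with 90.1% and 94.8% of the family's TPM. Tfap2a, the AP-2 gene active earlier in the neural crest, had 90 counts in replicate 1 and 44 in replicate 2, a log2 ratio of -1.03 (interval -1.59 to -0.50) at a mean count too low for the exact test. Tfap2c had 3 and 1 counts, Tfap2e 1 and 1, and Tfap2d 0 in both. Tfap2b-201 took 60.7% and 52.9% of the Tfap2b TPM, and 83.3% and 82.5% of its counts. Retained-intron transcripts took 8.51% and 24.2% of TPM, on few counts. Tfap2b-203 had 11.2 and 32.4 counts, and Tfap2b-205 had 2.69 and 9.58. In the second quantification Tfap2b-203 took 0% and 14.8% of TPM, and Tfap2b-205 took 7.42% and 0%. Kidney distal tubules also express Tfap2b, and the part of the kidney RNA in replicate 1 was not tested.

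Set against tyrosine hydroxylase (Th), the first enzyme of catecholamine synthesis, at 189 and 237 TPM, the members were minor transcripts. Hand2 stood at 12.0% and 12.2% of Th and Phox2a at 12.7% and 11.3%. Gata3 stood at 7.07% and 5.17%, Tfap2b at 5.67% and 4.63%, Insm1 at 3.14% and 2.43%, and Isl1 at 2.88% and 2.37%. The Hand2 share was nearly the same in both replicates, and each of the other shares was lower in replicate 2. Th itself was higher in replicate 2 by a log2 of 0.37 (interval 0.34 to 0.41). Of the 12 catecholamine and chromaffin genes listed, 8 passed the exact test as higher in replicate 2 and 0 as higher in replicate 1, against 18.8% and 14.4% of all genes tested. Of the 6 cortex markers, 5 were called higher in replicate 2 and 1 higher in replicate 1, at a median log2 ratio of 0.13. Of 6 capsule and fibroblast markers, 2 were called higher in replicate 2 and 3 higher in replicate 1, and the part of other cell types in these differences was not tested. The median of the catecholamine and chromaffin list was 0.20, against 0.02 over all genes tested. They included dopamine beta-hydroxylase (Dbh, 0.22), the adrenaline-forming enzyme Pnmt (0.29), and the granins Chga (0.23) and Chgb (0.30). The vesicular transporter genes Slc18a1 (0.09) and Slc18a2 (-0.06), the noradrenaline transporter gene Slc6a2 (0.05) and the receptor gene Ret (-0.06) were not called.

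Among 10 other regulators of the lineage, 9 had enough counts for the exact test, of which 0 passed as higher in replicate 2 and 2 as higher in replicate 1. These were Mycn (log2 ratio -0.44), a growth regulator of neuroblasts, and Sox11 (-0.66), a factor of immature neurons. Sox4 (25.2 ± 0.686 TPM, SD, n = 2) and Meis1 (25.5 ± 0.919) stood as high as the top members. The list's median log2 ratio was -0.08. All 19 listed partners and cofactors were detected, and 2 passed as higher in replicate 2 and 4 as higher in replicate 1, with a median of -0.03. Over all genes tested these shares were 18.8% and 14.4%. The E protein genes Tcf4 (65.0 ± 1.27 TPM), Tcf12 (41.3 ± 2.38) and Tcf3 (39.6 ± 0.778), whose products pair with Hand proteins, and Ldb1 (54.0 ± 4.98), which bridges LIM proteins such as Isl1, all stood above every member. Of the GATA cofactor genes, Zfpm1 (13.2 ± 2.77) overlapped Gata3 in level and Zfpm2 (5.33 ± 0.276) stood below it. Kdm1a (24.9 ± 1.42) and Rcor1 (18.1 ± 0.658), whose products bind Insm1, stood above Insm1. Rcor2, from the same list, stood below Insm1, at 5.30 and 4.07 TPM against 5.92 and 5.75 TPM.

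**Figure D5:**
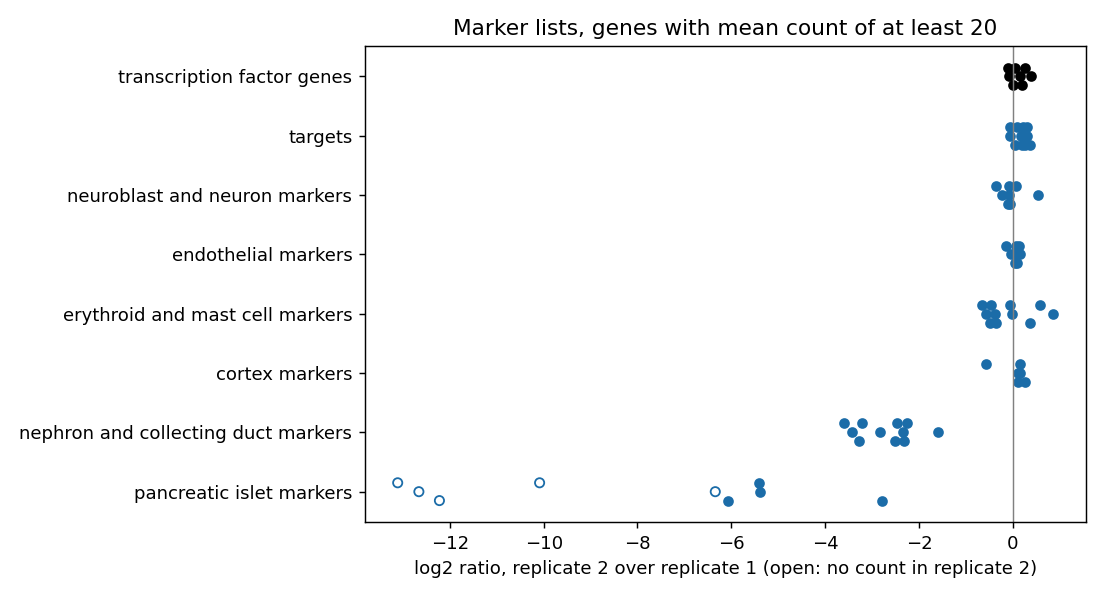
Log2 ratio of replicate 2 over replicate 1 for the members and for 7 of the gene lists, 1 point per gene averaging 20 counts or more. Open points are genes with no count in replicate 2, whose position depends on the prior count. The members lie between -0.11 and 0.39, the catecholamine and chromaffin genes (labelled targets) mostly above 0, and the islet and nephron genes shown all below 0.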

How the data were processed

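Total RNA-seq of 2 adrenal gland libraries was used, grouped by the labels into 1 group of 2 biological replicates. The gene tables deposited by the authors gave expected counts and TPM, on the assembly mm10 and the annotation M21 per the submitters' processing notes. No source used here names the aligner or quantifier. Estimated counts and TPM of a second deposited transcript table were summed to genes. Sequences that are no annotated gene held 0.901% and 0.923% of the expected counts and were left out. At these depths a gene with 0 counts may still hold a share of 9.42e-06% in replicate 1 or 9.11e-06% in replicate 2 (3 counts).

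Levels are deposited TPM, as mean and SD (n = 2), and a gene was detected at 1 TPM in both replicates. Log2 ratios of replicate 2 over replicate 1 came from expected counts scaled by edgeR's TMM (factors 1.02 and 0.985) with a prior of 0.5 counts. Ratios between genes used a pseudocount of 0.01 TPM. The exact conditional binomial test, two-sided, used expected counts rounded to whole numbers, with Benjamini-Hochberg adjustment at 0.05 over 13734 genes averaging 100 counts or more. Intervals are 95% exact counting intervals. They and the floors cover counting error only, since reads lacking molecular identifiers do not each stand for a molecule. The biological coefficient of variation, 1 common value from an intercept-only fit in edgeR, was 0.245. Technical differences between the libraries enter this value as well. The median absolute log2 ratio between the replicates was 0.109 over all genes tested. Promoters were matched by symbol.

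The members, 14 further gene lists and 15 gene pairs were chosen with earlier results of these data known. Every member is named with its values, and other genes are named as family members, neighbours or examples from the lists. Alternatives changed the scaling, prior, filters, fold and quantification. Results for 2 of the listed genes are not reported here, and counts for their list leave them out. The log2 ratio and the exact test were checked on simulated counts, which outside the genes given a set difference varied by sampling only. Tools were edgeR 4.0.16 and DESeq2 1.42.0 in R 4.3.3, and scipy 1.17.1, pandas 2.3.3, numpy 2.4.6 and matplotlib 3.10.9 in Python 3.11.15.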

Additional observations from a re-analysis of the deposited data

How the results depend on the processing

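Detection of all 8 members and the sign of all 15 ratios between genes held under every alternative run. No paired analysis was possible because there was 1 group. Hand2 alone among the members kept its exact-test call under each scaling. With spike-in scaling, the exact test called 2 members. Phox2a (exact test adjusted p = 0.165), Hand1 (0.0753) and Gata2 (0.341) lost the call and Tfap2b gained one (log2 ratio -0.19, exact p = 0.00386). With total-count scaling, Phox2a (0.0553) and Gata2 (0.126) lost it and Tfap2b gained it (-0.15, 0.0259). Directions reversed for Gata3 (-0.0242 by spike-in, -0.12 by TPM), Insm1 (-0.0784 by spike-in, -0.0431 by total count, -0.0420 by TPM), Isl1 (0.0471 by TPM) and Tfap2b (0.0360 by TPM). By TPM of the second quantification Gata2 reversed too (-0.0143), and 3 of the 8 members were higher in replicate 2. The summed level was 207 TPM in the second quantification, and 113 to 124 TPM from single replicates, which detected 8 members each. Genes past the fold numbered 7170 with no filter on counts, 993 at a mean count of at least 20, and 759 at 1.5-fold, against 441. The median absolute log2 ratio was 0.257 with no filter. The Gata2-202 share was 63.9% by posterior means and 88.8% by counts, both added after seeing the data, and 30.8% by TPM and 43.5% by counts in the second quantification, with 65.0% to 65.2% from single replicates. The causes of these shifts were not tested. Ratios between replicates cannot be recomputed without a replicate. Isl1, with 367 and 347 counts, had the fewest counts of the members.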
